A study of Mus musculus with 18 samples.

Results

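The immunoglobulin locus transcripts are the rows of the count table that belong to the antibody heavy chain locus and the kappa and lambda light chain loci. They were chosen by gene name, as variable (V), joining (J) and constant (C) segments of the 3 chains without names ending in ps, and selected on their summed counts, of which a row had to hold at least 100 over the 18 libraries. This left 104 members of the 55416 genes in the table, from 373 rows with such a name. The members are 82 variable segments (36 Ighv, 43 Igkv and 3 Iglv), 11 joining segments and 11 constant genes. Ighv1-78 was the member nearest to the minimum, with 102 counts, and Igkv4-72, Ighv14-4 and Igkv12-46 lay just outside it with 98 counts each. The minimum was set on the sum and not on a group, but it favours segments that are abundant in any 1 library: 34 members had their highest count in FcgRIIb knockout IVIg replicate 2 and 26 in replicate 3 of that group.

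The RNA came from monocytes sorted from splenocytes of mice on day 3 after phosphate-buffered saline (PBS) or intravenous immunoglobulin (IVIg, pooled immunoglobulin G given as protein). The 6 groups were C57BL/6 wild-type (WT) mice with PBS, WT mice with IVIg, Dectin-1 -/- mice with PBS, Dectin-1 -/- mice with IVIg, FcgRIIb-/- mice with PBS and FcgRIIb-/- mice with IVIg, and the design states 3 independent mice in each. The age of the mice, the background strain of the knockouts and the gate of the sort are not given in the sources used here. Clec7a encodes Dectin-1, which binds beta-glucans on myeloid cells. Fcgr2b encodes FcgRIIb, which binds immunoglobulin G, inhibits activating receptors and is also found on B cells and plasma cells. The study asks how these receptors bear on what IVIg does to monocytes.

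An antibody is built in the B lineage from a heavy chain and a kappa or lambda light chain. Each B cell joins 1 variable segment to a joining segment (in the heavy chain with a diversity segment between them), so a clone and its daughter cells carry the same variable segments. Naive B cells transcribe Ighm and Ighd, the constant genes of IgM and IgD, and class switching puts a downstream constant gene, such as Igha of IgA or an Ighg gene of IgG, in their place. Plasma cells, the antibody-secreting end stage, hold very large amounts of these transcripts and of Jchain, the joining chain of IgM and IgA polymers. Monocytes do not rearrange these loci. In bulk RNA, fewer cells of a type and less RNA per cell cannot be told apart.

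The sequences of 3 variable segments are shown because these segments made up most of the variable reads of all FcgRIIb knockout libraries and of 1 WT library. Each line gives bases 1 to 300 of exon 2, which encodes nearly all of the segment's part of the V domain, 5′ to 3′ on the coding strand, from a GENCODE transcript set of build GRCm38 matched by gene identifier, as all 79 Ighv and Igkv members were. Ighv1-81 lies on chromosome 12, and the capitals mark the 28 bases in which it differs from Ighv1-76, its closest relative among the members, over 305 bases (90.8% identity). Igkv1-110 and Igkv1-117 lie on chromosome 6, and the capitals mark the 10 bases in which the pair differ over 313 bases (96.8% identity). Reads that fall between the marked bases cannot tell Igkv1-110 from Igkv1-117, so how the counts divide between them is uncertain, and their summed share is given as well.
Ighv1-81: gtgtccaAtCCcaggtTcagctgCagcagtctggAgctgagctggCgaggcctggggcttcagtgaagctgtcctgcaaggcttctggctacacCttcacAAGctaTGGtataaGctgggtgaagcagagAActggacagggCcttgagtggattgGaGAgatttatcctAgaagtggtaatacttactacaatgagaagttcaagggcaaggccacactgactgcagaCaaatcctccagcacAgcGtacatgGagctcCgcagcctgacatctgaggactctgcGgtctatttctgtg
Igkv1-110: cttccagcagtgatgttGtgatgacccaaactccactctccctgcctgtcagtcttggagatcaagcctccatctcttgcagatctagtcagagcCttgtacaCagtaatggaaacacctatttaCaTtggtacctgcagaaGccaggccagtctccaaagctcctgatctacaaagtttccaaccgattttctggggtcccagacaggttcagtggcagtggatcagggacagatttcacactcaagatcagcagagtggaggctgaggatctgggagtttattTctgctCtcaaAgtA
Igkv1-117: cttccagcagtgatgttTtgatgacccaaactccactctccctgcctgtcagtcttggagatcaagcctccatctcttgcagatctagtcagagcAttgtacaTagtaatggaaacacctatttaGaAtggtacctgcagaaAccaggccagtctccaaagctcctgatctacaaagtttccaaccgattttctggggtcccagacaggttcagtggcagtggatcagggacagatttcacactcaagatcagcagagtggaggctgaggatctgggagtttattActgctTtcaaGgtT

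The library totals were 16996494 to 48958909 counts in 17 libraries and 719494 in FcgRIIb knockout PBS replicate 2, where rare segments were not measurable. Clec7a was at 0.247 to 4.05 CPM (the count divided by the library size in the usual fixed unit, with sizes adjusted by TMM, the trimmed mean of M-values) in the Dectin-1 knockout libraries and at 360 to 956 CPM in the rest. Fcgr2b was at 208 to 318 CPM in the WT libraries and at 130 to 250 CPM in those of the FcgRIIb knockout, so the gene total overlapped and does not check that label. WT IVIg replicate 3 stood apart from its group in nearly every immunoglobulin measure below and lay close to the FcgRIIb knockout, and its title carries a code of unstated meaning that is also in the title of FcgRIIb knockout PBS replicate 3. Its Fcgr2b level of 226 CPM lay in the range of both genotypes, so whether its genotype label is right was not tested. All values of WT IVIg, and of WT over both treatments, take that label as given. The counts of called members between the FcgRIIb knockout and WT, and the group means of level and effective number, are given with and without this library and the shallow one. The remaining 11 libraries of WT and Dectin-1 knockout mice are called the other 11 libraries here. Lyz2, the lysozyme of myeloid cells, was at 14559 to 35187 CPM in all 18 libraries. None of the 18 monocyte markers listed was called between FcgRIIb knockout and WT libraries, where 0.088% of all genes were called over both treatments. Of the 18, 5 had an unadjusted p under 0.05 there by edgeR, against 12.3% of all genes. The median difference of the 18 was -0.03 on the log2 scale, with 8 higher.

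The level of immunoglobulin RNA differed most by genotype. Summed over the 104 members it was 319, 322 and 279 CPM in the WT PBS libraries and 353, 344 and 1177 CPM in the WT IVIg libraries, in replicate order. In the Dectin-1 knockout it was 356.5, 382 and 397 CPM with PBS and 479, 382 and 327 CPM with IVIg. In the FcgRIIb knockout it was 1639, 2939 and 1665 CPM with PBS and 1416, 5087 and 1149 CPM with IVIg. Without the shallow library, PBS replicate 2, the FcgRIIb knockout mean with PBS was 1652 ± 18.4 CPM (SD, n = 2) in place of 2081 ± 743 CPM (SD, n = 3). Without replicate 3 the WT IVIg mean was 349 ± 6.65 CPM (SD, n = 2) in place of 625 ± 478 CPM (SD, n = 3). The other 11 libraries thus lay within 279 to 479 CPM, 5 of the 6 FcgRIIb knockout libraries lay above every WT library, and WT IVIg replicate 3 lay between replicates 3 and 1 of the FcgRIIb knockout IVIg group. As a share of all counts the members took 0.0298% to 0.0455% in the other 11 libraries, 0.112% in WT IVIg replicate 3 and 0.118% to 0.536% in the FcgRIIb knockout.

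**Figure D1:**
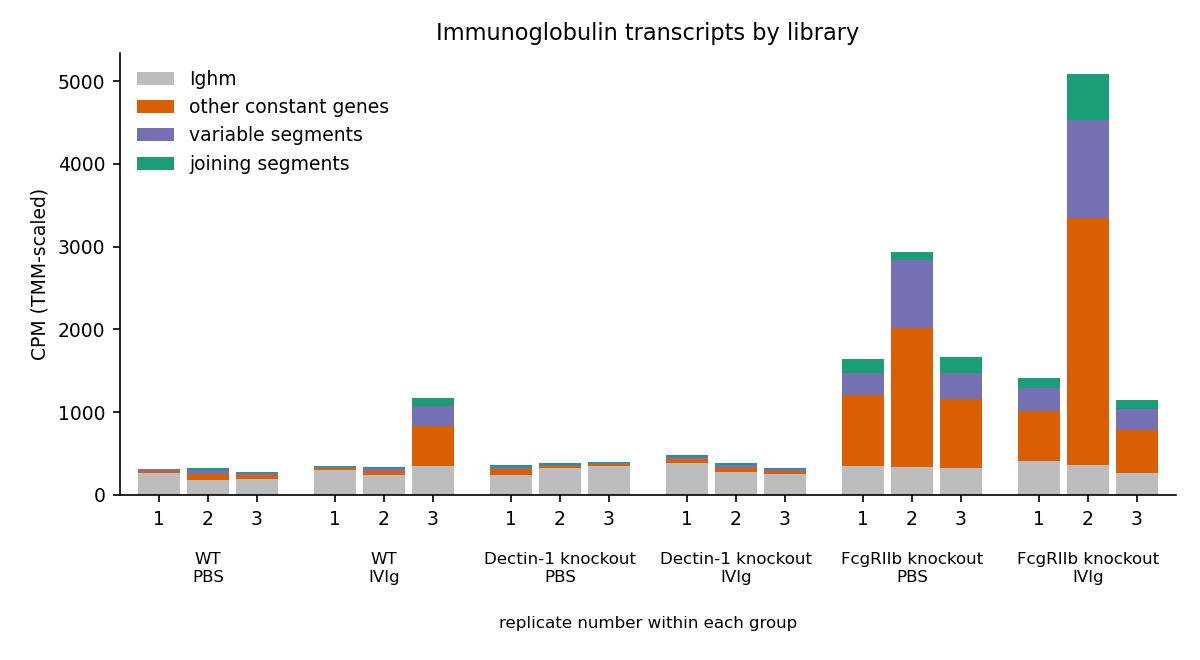
Summed level of the 104 immunoglobulin members in each of the 18 libraries, in CPM, by genotype and treatment. The 6 FcgRIIb knockout libraries lie between 1149 and 5087 CPM, WT IVIg replicate 3 lies at 1177 CPM and the other 11 libraries lie between 279 and 479 CPM.

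Among the constant genes, Ighm (ENSMUSG00000076617, GRCm39 chromosome 12, 113382178 to 113386350, minus strand), the constant gene of IgM, was the steadiest. It was at 265, 176 and 196 CPM with PBS and 296, 243 and 351 CPM with IVIg in WT mice. In the Dectin-1 knockout it was at 241, 332 and 350 CPM with PBS and 390, 277 and 250 CPM with IVIg, and in the FcgRIIb knockout at 355, 337 and 325 CPM and at 406, 357 and 265 CPM. The 3 genotypes overlapped. Over both treatments the FcgRIIb knockout was above WT by 0.44 ± 0.17 on the log2 scale (SE) with an adjusted p of 0.399 (edgeR quasi-likelihood test, Benjamini-Hochberg adjustment over all genes tested, as in every comparison below).

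Igkc (ENSMUSG00000076609, chromosome 6, 70703419 to 70703950, plus strand), the only kappa constant gene, was at 11.9, 32.3 and 17.9 CPM with PBS and 16.2, 30.2 and 206 CPM with IVIg in WT mice. In the Dectin-1 knockout it was at 24.2, 13.1 and 12.9 CPM and at 26.4, 24.2 and 20.9 CPM. In the FcgRIIb knockout it was at 297, 1007 and 395 CPM with PBS and at 310, 1079 and 217 CPM with IVIg. All 6 FcgRIIb knockout values exceeded all 12 others, the nearest being WT IVIg replicate 3. Over both treatments Igkc was higher in the FcgRIIb knockout than in WT by 3.67 ± 0.56 on the log2 scale (adjusted p = 0.00927) and than in the Dectin-1 knockout by 4.74 ± 0.59 (adjusted p = 0.000282). Without WT IVIg replicate 3 the difference from WT was 4.58 ± 0.48 (adjusted p = 0.000113).

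Igha (ENSMUSG00000095079, chromosome 12, 113218450 to 113223856, minus strand), the constant gene of IgA, had the widest span of any constant gene. In WT mice it was at 7.7, 37.3 and 18.8 CPM with PBS and at 4.43, 12 and 258 CPM with IVIg. In the Dectin-1 knockout it was at 31.9, 0.903 and 3.79 CPM and at 12, 3.46 and 11.9 CPM, and in the FcgRIIb knockout at 535, 618 and 422 CPM and at 256, 1799 and 274 CPM. The lowest FcgRIIb knockout library, at 256 CPM, and WT IVIg replicate 3, at 258 CPM, were alike, and every other WT or Dectin-1 knockout library was at 37.3 CPM or less. Igha rose against the Dectin-1 knockout by 5.93 ± 0.96 on the log2 scale (adjusted p = 0.00472). Against WT the difference was 3.84 ± 0.86 with an adjusted p of 0.212, and without WT IVIg replicate 3 it was 5.56 ± 0.81 with an adjusted p of 0.00285.

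The IgG genes were scarce outside the FcgRIIb knockout. Their summed level was 0 to 1.78 CPM in the other 11 libraries, 7.06 CPM in WT IVIg replicate 3 and 3.63 to 78.2 CPM in the FcgRIIb knockout. Ighg2b (chromosome 12, 113266585 to 113271553, minus strand) was at 2.49, 0 and 1.54 CPM in the FcgRIIb knockout with PBS and at 6.01, 33.5 and 4.75 CPM with IVIg, against 1.31 CPM or less in all WT and Dectin-1 knockout libraries. It was the called constant gene with the largest difference between FcgRIIb knockout and WT over both treatments, at 5.59 ± 1.01 on the log2 scale (adjusted p = 0.0194). Ighg2c (chromosome 12, 113248945 to 113252552, minus strand), the gene of the IgG2c subclass of C57BL/6 mice, was at 1.98, 8.47 and 1.85 CPM with PBS and at 14.7, 42.1 and 7.13 CPM with IVIg in the FcgRIIb knockout. Its highest value elsewhere was the 7.06 CPM of WT IVIg replicate 3, and all others were at 0.545 CPM or less. Ighg2c rose against the Dectin-1 knockout by 5.57 ± 1.13 (adjusted p = 0.0193) and differed from WT by 3.25 ± 0.87 with an adjusted p of 0.372. The IgG genes are alike in sequence, so how their counts divide is uncertain.

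Ighg3 and Ighg1 show how uneven the rarest constant genes were. Ighg3 was at 0.273, 32.5 and 0.0386 CPM with PBS and at 3.8, 1.64 and 3.4 CPM with IVIg in the FcgRIIb knockout, and at 0.41 CPM or less in the WT and Dectin-1 knockout libraries. Its 1 high value came from the shallow library. Ighg1 was at 1.32 CPM or less in all 18 libraries and at 0 in all 6 of the Dectin-1 knockout. Ighd, the constant gene of IgD and a gene of naive B cells, was at 1.97 to 6.02 CPM in WT libraries apart from 1.6 CPM in IVIg replicate 3, at 1.18 to 4.33 CPM in 5 Dectin-1 knockout libraries and 13.3 CPM in the sixth, IVIg replicate 2, and at 0 to 5.39 CPM in the FcgRIIb knockout. It did not follow the pattern of Igkc or Igha, since its groups overlapped throughout.

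Counts per kilobase of exon allow the constant genes to be set against each other. Igha made up 0.191% to 12.8% of heavy chain constant reads per kilobase in the other 11 libraries, 33.4% in WT IVIg replicate 3 and 29.2% to 74.1% in the FcgRIIb knockout. Ighm made up 85.5% to 99.1% in the other 11 libraries and 20.8% to 65.6% in the FcgRIIb knockout. The ratio of Igkc to Ighm per kilobase was 0.130 to 0.651 in the other 11 libraries, 2.08 in WT IVIg replicate 3 and 2.71 to 10.7 in the FcgRIIb knockout. The heavy chain constant reads were thus mostly IgM in the other 11 libraries, and a mixture with a large IgA part in the FcgRIIb knockout and in WT IVIg replicate 3.

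**Figure D2:**
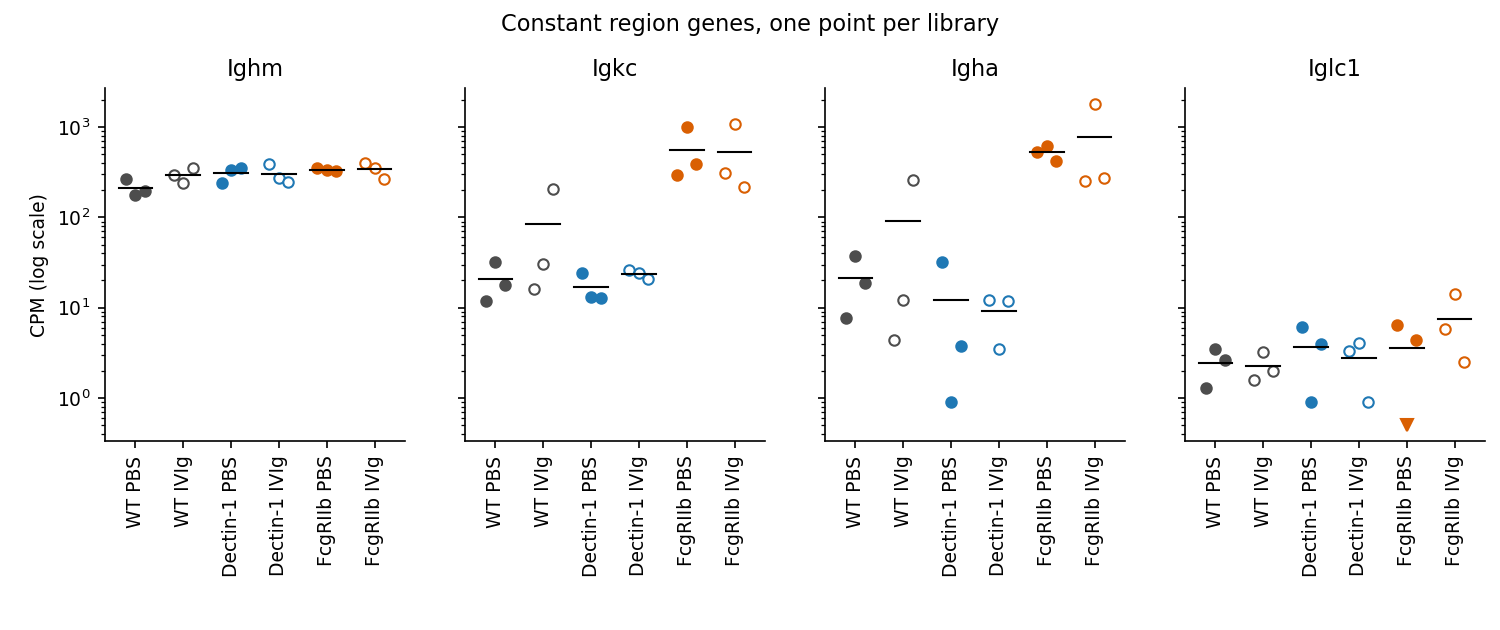
Levels of Ighm, Igkc, Igha and Iglc1 in each library in CPM on a log axis, by genotype, with filled points for PBS, open points for IVIg and a line at each group mean; a triangle at the bottom stands for a library at 0. Ighm overlaps between genotypes, while Igkc and Igha lie at 217 CPM or more in all FcgRIIb knockout libraries and at 37.3 CPM or less in the other 11 libraries.

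The lambda chain moved less than the kappa chain. Iglc2 (chromosome 16, 19017146 to 19019101), a lambda constant gene, was at 0.545 to 3.53 CPM in the WT and Dectin-1 knockout libraries and at 3.48, 0, 5.48, 9.46, 6.09 and 6.46 CPM in the FcgRIIb knockout, PBS first. It rose against WT over both treatments by 2.0 ± 0.34 (adjusted p = 0.0152), and against the Dectin-1 knockout the difference was 1.55 ± 0.34 with an adjusted p of 0.0697. Iglc1 was at 0.902 to 6.15 CPM in the WT and Dectin-1 knockout libraries and at 6.34, 0, 4.36, 5.82, 14 and 2.52 CPM in the FcgRIIb knockout, with overlap between the groups. The lambda constant genes made up 11.6% to 35.9% of light chain constant reads per kilobase in the other 11 libraries, 2.56% in WT IVIg replicate 3 and 1.62% to 5.77% in the FcgRIIb knockout. Summed they were at 2.69 to 10.3 CPM in the other 11 libraries and 10.2 to 25.0 CPM in the FcgRIIb knockout, so the lower share came with a lambda level that was not lower. The lambda constant genes are related in sequence, and how well the reads separate each of them from the others was not tested.

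Variable segments took 2.50% to 13.2% of the immunoglobulin counts in the other 11 libraries, 20.6% in WT IVIg replicate 3 and 16.0% to 27.8% in the FcgRIIb knockout. The constant genes took the larger part everywhere. With Ighm set aside, the difference between genotypes in the variable share was no longer seen. Variable segments were then 24.0% to 34.4% of the counts in WT libraries, 21.4% to 30.5% in the Dectin-1 knockout and 20.5% to 31.4% in the FcgRIIb knockout, with WT IVIg replicate 3 at 29.4%. The higher variable share of the FcgRIIb knockout thus went with a lower share of Ighm, which was 7.03% to 28.7% of the immunoglobulin counts there, 29.8% in WT IVIg replicate 3 and 54.7% to 88.3% in the other 11 libraries.

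Ighv1-81 (ENSMUSG00000094689, chromosome 12, 115883899 to 115884332, minus strand) was the heavy chain variable segment that the FcgRIIb knockout libraries shared. It was at 0, 0.305 and 1.35 CPM in WT mice with PBS and at 1.05, 0.471 and 54.9 CPM with IVIg. In the Dectin-1 knockout it was at 1.24, 0.717 and 0 CPM and at 0, 0.419 and 1.82 CPM, and in the FcgRIIb knockout at 74, 77.6 and 67.6 CPM and at 31.3, 393 and 41.1 CPM. WT IVIg replicate 3 lay inside the FcgRIIb knockout range, and the other 11 libraries were at 1.82 CPM or less. Over both treatments it rose in the FcgRIIb knockout by 5.02 ± 0.95 on the log2 scale against WT (adjusted p = 0.0448) and by 7.03 ± 1.07 against the Dectin-1 knockout (adjusted p = 0.00208). Without WT IVIg replicate 3 the difference from WT was 7.32 ± 0.82 (adjusted p = 0.000170). Ighv1-76, its closest relative among the members, was at 2.37 CPM or less in every library.

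The share of Ighv1-81 among heavy chain variable counts was 83.6%, 91.7% and 85.3% in the FcgRIIb knockout with PBS and 64.8%, 92.7% and 59.1% with IVIg. It was 95% in WT IVIg replicate 3. In the other 11 libraries it was 0% to 21.7%, and other segments usually led, among them Ighv1-19, Ighv3-4, Ighv5-17 in a pair of libraries, Ighv1-53 and Ighv1-82. The FcgRIIb knockout PBS replicate 2 share rests on 60 counts, and the remaining FcgRIIb knockout shares on 980 to 14447.

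Igkv1-110 (ENSMUSG00000093861, chromosome 6, 68247469 to 68248251, plus strand) was at 0.546, 3.18 and 0.626 CPM in WT mice with PBS and at 1.78, 0 and 84.8 CPM with IVIg. It was at 0 to 0.86 CPM in the Dectin-1 knockout and at 129, 398 and 117 CPM with PBS and 157, 223 and 36.1 CPM with IVIg in the FcgRIIb knockout. Every FcgRIIb knockout library lay above the other 11 libraries. It rose against WT over both treatments by 4.58 ± 0.83 (adjusted p = 0.0190), and without WT IVIg replicate 3 by 7.11 ± 0.66 (adjusted p = 8.34e-06). Against the Dectin-1 knockout the difference was 9.02 ± 1.16 (adjusted p = 0.000154).

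Igkv1-117 (chromosome 6, 68098030 to 68098811, plus strand) was at 0.3, 0.959 and 0.578 CPM with PBS and at 0.281, 1.8 and 77.6 CPM with IVIg in WT mice. It was at 0 to 0.907 CPM in the Dectin-1 knockout, and in the FcgRIIb knockout at 19.4, 265 and 76.1 CPM with PBS and at 10.5, 435 and 77.7 CPM with IVIg. The FcgRIIb knockout libraries and WT IVIg replicate 3 again lay above the rest. It rose against the Dectin-1 knockout by 10.38 ± 1.69 (adjusted p = 0.00569). Against WT the difference was 4.85 ± 1.09 with an adjusted p of 0.238, and without WT IVIg replicate 3 it was 7.14 ± 0.99 with an adjusted p of 0.00203. Together Igkv1-110 and Igkv1-117 made up 65.4% to 90.6% of kappa variable counts in the FcgRIIb knockout, 89.2% in WT IVIg replicate 3 and 0% to 24.2% in the other 11 libraries. Igkv1-110 was the larger of the pair in the FcgRIIb knockout with PBS and in IVIg replicate 1, and Igkv1-117 in IVIg replicates 2 and 3.

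**Figure D3:**
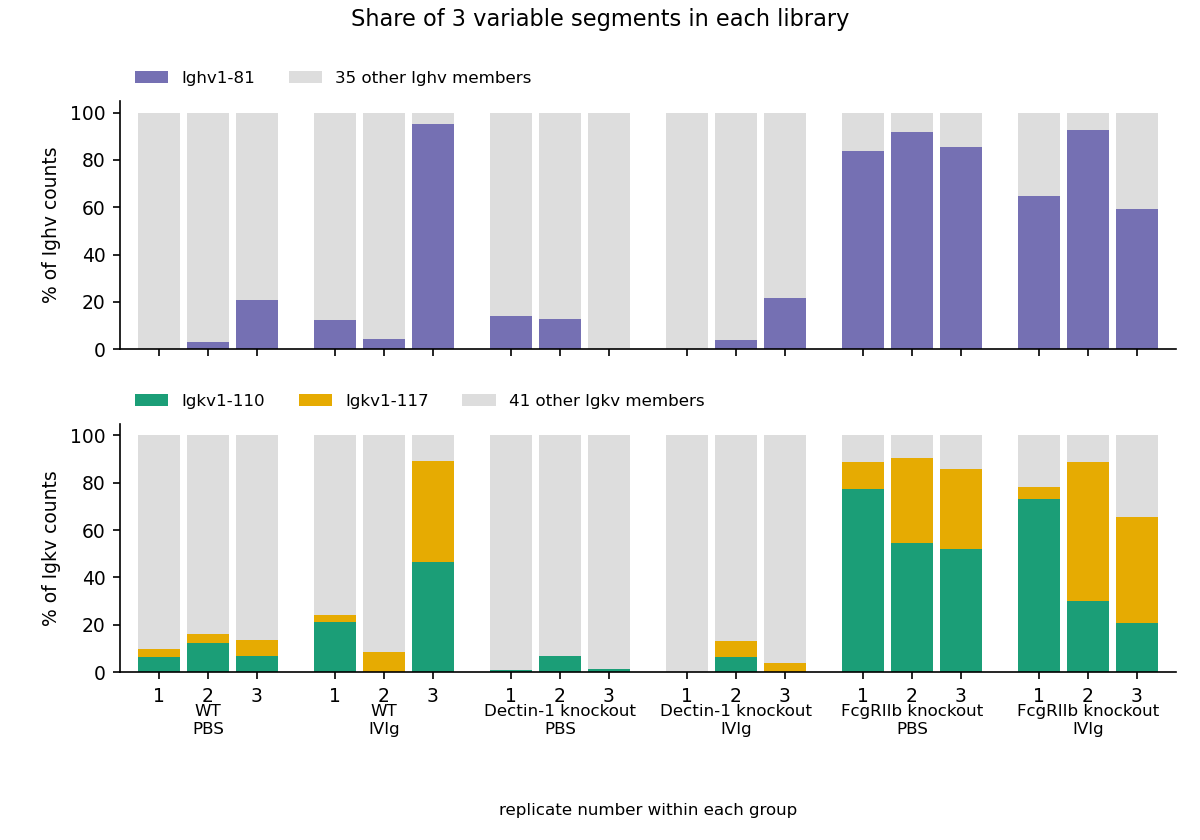
Share of Ighv1-81 among heavy chain variable counts and summed share of Igkv1-110 and Igkv1-117 among kappa variable counts in each library, as stacked bars in percent of the counts of that chain. The 6 FcgRIIb knockout libraries and WT IVIg replicate 3 lie at 59.1% or more for both measures, and the other 11 libraries at 24.2% or less.

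Clonal spread was described by the effective number of segments, the number of equally used segments that would give the same chance of drawing the same segment from a pair of reads. For the heavy chain it was 7.97 ± 3.02 in WT PBS, 7.28 ± 5.59 in WT IVIg, 7.23 ± 1.13 in the Dectin-1 knockout with PBS and 11.6 ± 10.6 with IVIg, and 1.33 ± 0.124 and 2.09 ± 0.839 in the FcgRIIb knockout with PBS and IVIg (SD, n = 3 each). For the kappa chain it was 10.8 ± 5.63, 6.93 ± 3.86, 8.26 ± 3.44, 9.75 ± 5.53, 2.19 ± 0.493 and 2.73 ± 1.16 in the same order of groups. The library values were 4.22 to 23.7 in the other 11 libraries and 1.16 to 2.80 in the FcgRIIb knockout for the heavy chain, and 4.52 to 17.3 and 1.63 to 4.04 for the kappa chain, so neither chain overlapped. WT IVIg replicate 3, at 1.11 and 2.47, lay with the FcgRIIb knockout, and without it the WT IVIg mean was 10.4 ± 2.32 for the heavy chain and 9.16 ± 0.12 for the kappa chain (SD, n = 2 each). Without the shallow library the FcgRIIb knockout mean with PBS was 1.4 ± 0.0445 and 2.11 ± 0.671 (SD, n = 2 each), and the ranges of the 5 remaining libraries were the same as those of the 6.

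The 3 leading segments held most of the heavy chain and kappa variable counts in the FcgRIIb knockout. They were picked for that share, so a higher effective number there without them was set in advance. The other 11 libraries kept most of their own leading segments. With Ighv1-81 removed, the effective number for the heavy chain was 14.9, 1.67 and 3.72 in the FcgRIIb knockout with PBS and 8.56, 15.6 and 20.6 with IVIg, against 4.22 to 22.7 in the other 11 libraries. The lowest value, from PBS replicate 2, rests on few counts. The 3.72 of PBS replicate 3, where Ighv10-3 held 147 counts, also lay below the other 11 libraries. With both leading kappa segments removed, the FcgRIIb knockout libraries were at 5.73 to 23.0. The level of the remaining variable reads was 7.06 to 30.7 CPM for the heavy chain in the FcgRIIb knockout against 1.82 to 10.8 CPM in the other 11 libraries, and 18.5 to 84.0 CPM against 5.58 to 21.5 CPM for the kappa chain. Members were admitted on their summed counts, with 34 highest in FcgRIIb knockout IVIg replicate 2 and 26 in replicate 3. These levels thus cannot be read as an effect of genotype on the remaining segments. In WT IVIg replicate 3 the remaining heavy chain reads were at 2.89 CPM with an effective number of 5.97. Its remaining kappa reads had an effective number of 1.84, with Igkv3-10 at 14.5 CPM. In the FcgRIIb knockout Igkv3-10 had 12 counts in PBS replicate 1, 48 in IVIg replicate 1 and 40 in IVIg replicate 3. It was listed at 0 in PBS replicates 2 and 3 and in IVIg replicate 2.

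**Figure D4:**
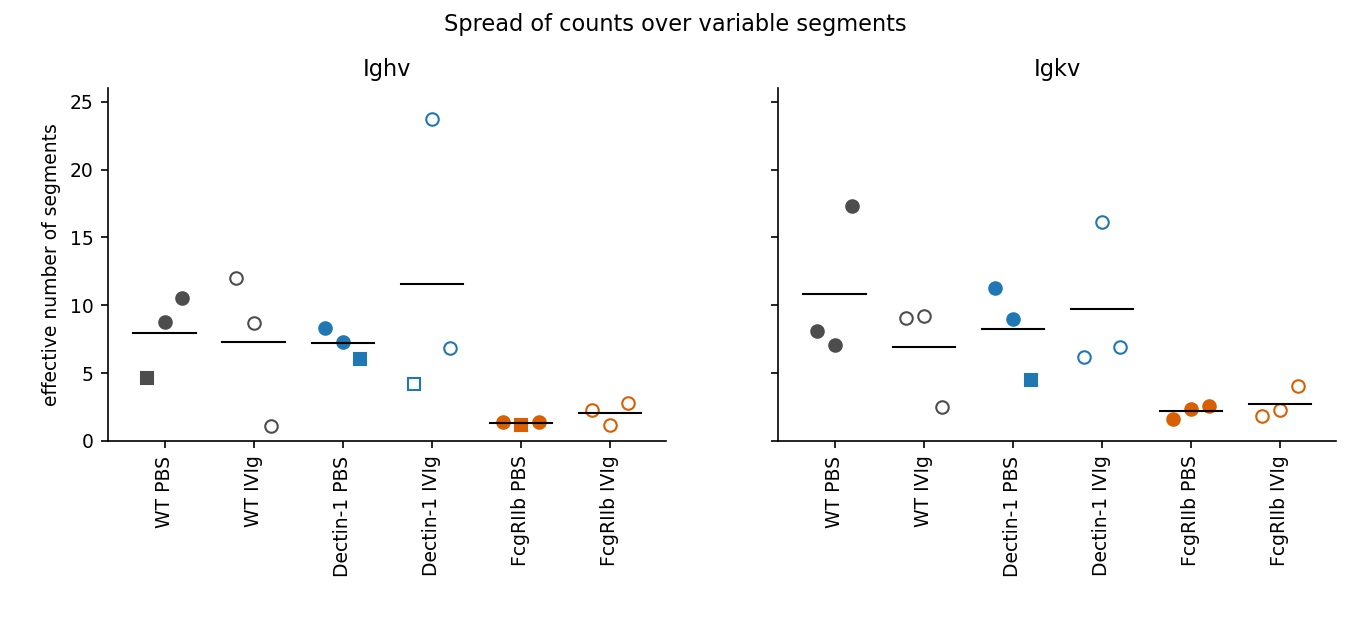
Effective number of heavy chain and kappa variable segments in each library, by genotype and treatment; squares mark libraries with under 200 variable counts of the chain. The FcgRIIb knockout libraries lie between 1.16 and 2.80 (heavy) and between 1.63 and 4.04 (kappa), with WT IVIg replicate 3 at 1.11 and 2.47.

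The variable profiles of pairs of libraries were compared by their overlap, the sum over segments of the smaller of the shares. For the heavy chain the 15 pairs within the FcgRIIb knockout overlapped by 60.9% to 92.3% with a median of 71.8%, and the 55 pairs among the other 11 libraries by 0% to 49.0% with a median of 21.1%. WT IVIg replicate 3 overlapped with the 6 FcgRIIb knockout libraries by 63.2% to 94.0% and with the other 11 by 0.346% to 23.7%. For the kappa chain the corresponding ranges were 36.6% to 88.5% within the FcgRIIb knockout, 7.38% to 58.6% among the other 11 libraries and 53.9% to 83.4% between WT IVIg replicate 3 and the FcgRIIb knockout. With the leading segments removed, the heavy chain overlap within the FcgRIIb knockout was 1.66% to 51.6%, and that of WT IVIg replicate 3 with the FcgRIIb knockout was 0% to 25.3%. Both lower ends came from the shallow library, which had few heavy chain counts left. Pairs without it began at 16.2% in both sets. Among the other 11 libraries it was then 0% to 47.8% with a median of 21.6%, against a median of 30% within the FcgRIIb knockout. The leading segments were thus shared between libraries that the design gives as different mice. They were picked for their high share in these libraries, so the fall in overlap without them was set in advance and says nothing of the remainder. The pairs share libraries and were given no test.

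There were 3 pairs of libraries whose titles share a code, and 2 of them overlapped closely over all segments. WT IVIg replicate 3 overlapped with FcgRIIb knockout PBS replicate 3 by 86.5% for the heavy chain and 81.4% for the kappa chain, and by 16.2% and 8.63% once the leading segments were removed. FcgRIIb knockout PBS replicates 1 and 2 overlapped by 84.1% and 70.9%, and without the leading segments by 3.29% and 48.8%, where the second library has few counts. For the kappa chain the range within the FcgRIIb knockout was then 19.2% to 49.4%, so the last value lay near its upper end. Dectin-1 knockout PBS replicates 2 and 3 overlapped by 4.72% and 12.3%.

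The joining segments lie between the variable segments and the constant genes, and each rearranged chain keeps 1. Igkj2 (ENSMUSG00000076605, chromosome 6, 70699900 to 70699942, plus strand) was at 0.89 to 2.62 CPM in the WT libraries, WT IVIg replicate 3 included at 1.27 CPM, and at 0.558 to 2.94 CPM in the Dectin-1 knockout. It was at 7.67, 49.4 and 14.5 CPM with PBS and at 41.4, 40.6 and 32.7 CPM with IVIg in the FcgRIIb knockout, above all 12 others. Over both treatments it rose by 3.7 ± 0.34 against WT (adjusted p = 1.45e-05) and by 3.51 ± 0.34 against the Dectin-1 knockout (adjusted p = 7.94e-06), and it had the smallest adjusted p of the members in both. Igkj2 set WT IVIg replicate 3 apart from the FcgRIIb knockout, whereas Igkj1 did not: Igkj1 was at 50.8 CPM in that library, at 7.31 CPM or less in the other 11, and at 19.8 to 342 CPM in the FcgRIIb knockout.

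The joining segment that led differed between the FcgRIIb knockout libraries, although they shared the leading variable segments. Among kappa joining counts, Igkj4 led in PBS replicate 1 with 56.9%, Igkj1 in PBS replicate 3 with 63.8% and IVIg replicate 2 with 85.0%, and Igkj2 in IVIg replicates 1 and 3 with 52.7% and 44.3%. PBS replicate 2 had 59 kappa joining counts, led by Igkj2 with 59.3%. In WT IVIg replicate 3 Igkj1 led with 69.5%. Among heavy chain joining counts, Ighj1 led in all of the other 11 libraries with 38.9% to 80.9%. Ighj4 led in the FcgRIIb knockout with PBS (with 15 counts in replicate 2) and in IVIg replicate 1, and Ighj2 in IVIg replicates 2 and 3 with 59.7% and 51.4%, as it did in WT IVIg replicate 3 with 52.2%. Ighj1 itself was at 2.15 to 5.97 CPM in the WT and Dectin-1 knockout libraries and at 0 to 9.96 CPM in the FcgRIIb knockout, with overlap throughout. The short joining exons overlap reads from unspliced and rearranged transcripts alike, so their shares are not shares of clones.

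Against WT over both treatments, the FcgRIIb knockout had 11 called members of the 95 that passed the filter on low counts, all higher, where 0.088% of all genes tested were called. They were 3 constant genes (Igkc, Ighg2b and Iglc2), 5 joining segments (Igkj2, Igkj5, Ighj3, Ighj4 and Iglj2) and 3 variable segments (Ighv1-81, Igkv1-110 and Ighv9-3). The median difference of the 95 members was 2.0 on the log2 scale, against -0.02 for all genes tested, and 42 members had an unadjusted p under 0.05, all higher. Of all genes 12.3% had such a p, and 6.5% also a higher level. Only 3 members had all 6 FcgRIIb knockout values above all 6 WT values, against 0.0998% of all genes. Members were admitted on their summed counts, and 34 had their highest count in FcgRIIb knockout IVIg replicate 2 and 26 in replicate 3. This median and the counts by unadjusted p or overlap thus cannot be read as an effect of genotype on the members as a set. Without WT IVIg replicate 3 there were 17 called members, where 0.128% of all genes were called, and all 11 were among them. Without the shallow library 8 of 101 members tested were called, where 0.0553% of all genes were, with a median of 2.01, and 11 had all remaining FcgRIIb knockout values above all WT values, against 0.343% of all genes. Leaving out WT PBS replicate 2 gave 4 called members and leaving out FcgRIIb knockout PBS replicate 3 gave 3. Igkj2 and Igkc were called in each of the 18 fits that left out 1 library. Ighj3 and Igkj5 lost the call only without FcgRIIb knockout PBS replicate 3, and Ighj4, Iglc2 and Iglj2 only without that library or WT PBS replicate 2. Ighv9-3 lost it without WT PBS replicate 2 or FcgRIIb knockout PBS replicate 1. Ighg2b kept it in 12 of the 18 fits, Igkv1-110 in 9 and Ighv1-81 in 6, and these 3 lost it without WT PBS replicate 2 among others. The p-values here measure the spread between these libraries, each taken as a separate mouse as the design states. Whether libraries whose titles share a code came from separate mice was not tested.

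Against the Dectin-1 knockout over both treatments, the FcgRIIb knockout had 15 called members of 95, all higher, where 0.241% of all genes were called. They were 4 constant genes (Igkc, Igha, Ighg2b and Ighg2c), 7 joining segments (Igkj1, Igkj2, Igkj4, Igkj5, Ighj2, Ighj3 and Ighj4) and 4 variable segments (Ighv1-81, Igkv1-110, Igkv1-117 and Igkv9-120). The median difference was 1.84 against 0.01 for all genes, and 11 members had all 6 FcgRIIb knockout values above all 6 Dectin-1 knockout values, against 0.176% of all genes. Of all members 36 had an unadjusted p under 0.05, all higher, against 5.52% of all genes in either direction and 3.05% with a higher level. Here too members were admitted on their summed counts. This median and the counts by unadjusted p or overlap thus cannot be read as an effect on the members as a set. The comparisons with WT and with the Dectin-1 knockout share the FcgRIIb knockout libraries. Without the shallow library 12 of 101 were called, where 0.172% of all genes were, with a median of 1.66. Without FcgRIIb knockout PBS replicate 3, or without Dectin-1 knockout IVIg replicate 3, 10 members were called. Igkc, Igha, Igkj1, Igkj2, Ighj4, Ighv1-81, Igkv1-110 and Igkv1-117 were called in each of the 18 fits that left out 1 library. Ighj3 and Igkj5 lost the call only without FcgRIIb knockout PBS replicate 3. Ighj2 kept it in 15 of those fits, Igkj4 in 12, Ighg2c in 10, Ighg2b in 8 and Igkv9-120 in 6.

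**Figure D5:**
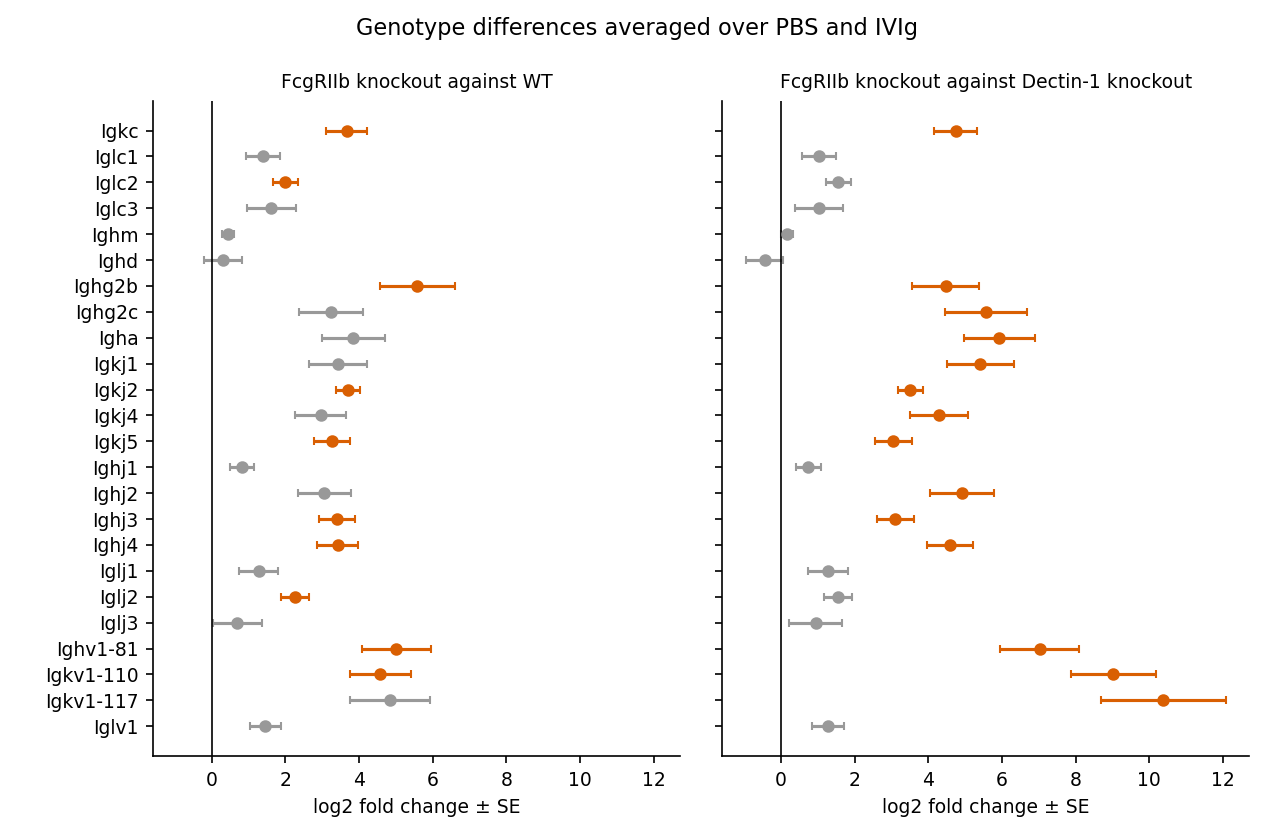
Difference in level on the log2 scale between FcgRIIb knockout and WT and between FcgRIIb knockout and Dectin-1 knockout, averaged over both treatments, for constant and joining genes and the leading variable segments; bars are SE and orange points have an adjusted p under 0.05. Igkc lies at 3.67 and 4.74, Ighm at 0.44 and 0.16, and every orange point lies above 0.

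Within PBS, no member was called between the FcgRIIb knockout and WT, and none of all genes was either (0%). DESeq2 called 11 members there, where it called 1.03% of all genes. In the edgeR test 25 of 95 members had an unadjusted p under 0.05, all higher, against 9.65% of all genes in either direction and 6.15% with a higher level. The median difference was 1.32 against -0.05 for all genes, and 1.26 with the members at 0 in 1 group set to the bound that 3 counts over a group allow. For 16 members the groups did not overlap with the FcgRIIb knockout higher, against 3.63% of all genes. Admission on counts summed over all libraries, these included, limits what this median and these counts say of the members as a set. Igkc differed by 4.67 ± 0.83 (adjusted p = 0.123), Igkv1-110 by 6.90 ± 1.34 (adjusted p = 0.129) and Ighv1-81 by 6.99 ± 1.55 (adjusted p = 0.236). Without the shallow library, with 2 FcgRIIb knockout libraries left, 0 of 101 members were called and 25 had an unadjusted p under 0.05, the median was 1.22, and 34 members did not overlap, against 12% of all genes. Without WT IVIg replicate 3, which enters only through the estimate of the spread and the genes tested, 6 members were called, where 0.05% of all genes were. Leaving out replicate 1 of the FcgRIIb knockout PBS group also gave 6, leaving out WT IVIg replicate 1 gave 4 and leaving out WT IVIg replicate 2 gave 1.

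Within IVIg, Igkj2 rose in the FcgRIIb knockout against WT by 4.81 ± 0.47 (adjusted p = 4.14e-05) and Ighg2b by 5.0 ± 0.83 (adjusted p = 0.0421), and these were the 2 genes called of all tested (0.0117%). A further 53 members had an unadjusted p under 0.05, which makes 55 of 95, all higher, against 5.44% of all genes in either direction and 3.84% with a higher level. The median difference was 2.65 against -0.02 for all genes, and 27 members did not overlap with the FcgRIIb knockout higher, against 5.76%. Members were admitted on their summed counts, and 34 had their highest count in replicate 2 of this FcgRIIb knockout group and 26 in replicate 3. This median and the counts by unadjusted p or overlap thus cannot be read as an effect of genotype on the members as a set. Igkc differed by 2.67 ± 0.74 (adjusted p = 0.766). Without WT IVIg replicate 3 the called members were 5, namely Igkj2, Igkc, Ighg2c, Ighv1-81 and Igkv1-110, where 0.0333% of all genes were called. Ighg2b was not among them. Igkj2 was called in each of the 18 fits that left out 1 library, and Ighg2b in 8. A single called member was left without WT PBS replicate 2 or 3, WT IVIg replicate 1, any Dectin-1 knockout PBS library, Dectin-1 knockout IVIg replicate 2 or replicate 2 of either FcgRIIb knockout group. Leaving out FcgRIIb knockout PBS replicate 1 or 3 gave 4, and leaving out FcgRIIb knockout IVIg replicate 3, Dectin-1 knockout IVIg replicate 1 or Dectin-1 knockout IVIg replicate 3 gave 3.

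IVIg itself gave no called member in any genotype. In the FcgRIIb knockout 18 of 95 members had an unadjusted p under 0.05 by edgeR, 16 of them higher with IVIg, against 3.19% of all genes in either direction and 1.78% with a higher level. DESeq2 called 0 members, and the called share of all genes by edgeR was 0%. Without FcgRIIb knockout IVIg replicate 3, 1 member was called. The median difference was 1.17, or 1.23 at the bounds, against 0.01 for all genes, and 14 members did not overlap with IVIg higher, against 5.76% of all genes. Neither this median nor these counts can be read as an effect of IVIg on the members, since members were admitted on their summed counts and 60 of the 104 had their highest count in IVIg replicate 2 or 3 of this genotype. The shallow library adds values of 0 to the PBS group. Without it 20 of 101 members had an unadjusted p under 0.05, the median was 1.33, and 19 members did not overlap with IVIg higher, against 8.76% of all genes. The smallest p-values were those of Ighg2c (3.39 ± 0.96), Igkj2 (1.57 ± 0.44) and Ighg2b (2.90 ± 0.83), each with an adjusted p of 1. Ighg2b did not overlap between PBS and IVIg, while Ighg2c and Igkj2 did. Igkc differed by 0.02 ± 0.72 and Ighm by 0.02 ± 0.24 on the log2 scale in this comparison, so the interval for Igkc is wide.

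In WT mice 16 of 95 members had an unadjusted p under 0.05 for IVIg against PBS by edgeR, 10 higher and 6 lower, against 2.52% of all genes, and DESeq2 called 0. The called share of all genes was 0.00587%, and the median difference of the members was 0.09 against 0.01. Igkv1-110 differed by 4.25 ± 1.24 and Ighv1-81 by 5.05 ± 1.53 (adjusted p = 1 for both). Both were set by WT IVIg replicate 3, and without it Igkv1-110 differed by -0.83 and Ighv1-81 by 0.41. Igkv6-25 differed by -4.55 ± 1.30 (adjusted p = 1), from 8.18 CPM in WT PBS replicate 2 and 0.3 CPM or less in the other WT libraries.

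In the Dectin-1 knockout 2 of 95 members had an unadjusted p under 0.05 for IVIg against PBS by edgeR, against 3.26% of all genes, and the called share was 0%. DESeq2 called 1 member, where it called 0.0117% of all genes. The median difference was 0.37, or 0.45 at the bounds, against 0.02 for all genes. Ighv1-82 was at 0 in the PBS libraries and at 0, 0.209 and 2.2 CPM with IVIg, at least 26.1-fold higher in the mean when the PBS libraries together are given 3 counts. Iglv2 differed by 3.83 ± 1.59 (adjusted p = 1), at 0.0303, 0 and 0.149 CPM with PBS and at 1.36, 1.05 and 0.294 CPM with IVIg.

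The Dectin-1 knockout did not differ from WT in any called member. With PBS, 2 of 95 members had an unadjusted p under 0.05 by edgeR, against 4.05% of all genes, the called share of all genes was 0.0411% and DESeq2 called 0 members. Igkv19-93 was at 2, 0 and 0.558 CPM in the knockout and at 0 in WT PBS, at least 35.2-fold higher when the WT PBS libraries together are given 3 counts. Ighm differed by 0.54 ± 0.23 (adjusted p = 0.909). With IVIg, 15 members had an unadjusted p under 0.05, 10 of them lower, against 3.45% of all genes, the called share was 0.0528% and DESeq2 called 2 members, with 0.135% of all genes. Without WT IVIg replicate 2, 1 member was called. Igkv1-110 differed by -6.38 ± 1.61 (adjusted p = 0.280) and Igkv1-117 by -5.55 ± 1.81 (adjusted p = 0.965), and without WT IVIg replicate 3 by -1.30 and -0.95. Over both treatments 6 members had an unadjusted p under 0.05, against 3.5% of all genes, the called share was 0.0998% and DESeq2 called 4 members, with 0.194% of all genes. Igha differed by -2.08 ± 0.85 (adjusted p = 1), where WT IVIg replicate 3 lay far above the remaining WT libraries. These comparisons share the WT libraries with those of the FcgRIIb knockout.

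The tests of whether the IVIg effect differed between genotypes called no member and no gene (0%). For the FcgRIIb knockout against WT, 12 members had an unadjusted p under 0.05 by edgeR, against 2.86% of all genes, with a median of 1.15 against 0.01, and DESeq2 called 0. Since members were admitted on their summed counts, this median and count cannot be read as an effect on the members either. Igkj4 differed by -4.49 ± 1.39 and Igkj2 by 2.21 ± 0.70 (adjusted p = 1 for both). For the Dectin-1 knockout against WT, 4 members had an unadjusted p under 0.05, against 3.75% of all genes, and DESeq2 called 0. Ighj3 differed by 3.50 ± 1.31 (adjusted p = 0.999).

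Genes that B cells and plasma cells use beside the immunoglobulin loci were set next to these results. Jchain was at 2.26 to 20.3 CPM in the other 11 libraries, at 89.4 CPM in WT IVIg replicate 3, and at 99.9, 703 and 158 CPM with PBS and 172, 617 and 128 CPM with IVIg in the FcgRIIb knockout. It rose against WT over both treatments by 4.0 ± 0.67 (adjusted p = 0.0152) and against the Dectin-1 knockout by 5.61 ± 0.74 (adjusted p = 0.000550). Mzb1, an endoplasmic reticulum chaperone partner of antibody-secreting cells, was at 0.398 to 2.35 CPM in the other 11 libraries, 4.84 CPM in WT IVIg replicate 3, 0 in the shallow library and 5.18 to 23.9 CPM in the remaining FcgRIIb knockout libraries. It rose against WT by 2.77 ± 0.42 (adjusted p = 0.00822). Tnfrsf17, the plasma cell receptor BCMA, was at 0 in the other 11 libraries, at 0.866 CPM in WT IVIg replicate 3 and at 0 to 3.34 CPM in the FcgRIIb knockout.

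Of 15 plasma cell markers listed, 14 were tested. Called higher in the FcgRIIb knockout were 2 against WT (Jchain and Mzb1), where 0.088% of all genes were called. Against the Dectin-1 knockout 3 were called higher (Jchain, Mzb1 and Eaf2), where 0.241% of all genes were called. Summed without Xbp1, which monocytes also express, they were at 332 to 567 CPM in WT, 441 to 485 CPM in the Dectin-1 knockout and 601 to 1162 CPM in the FcgRIIb knockout. Jchain carried that separation: without Jchain as well, the remaining 13 were at 328 to 478 CPM in WT, 438 to 479 CPM in the Dectin-1 knockout and 424 to 545 CPM in the FcgRIIb knockout, with overlap. The median difference of the 14 tested was 0.26 against WT and 0.17 against the Dectin-1 knockout. Tnfrsf17 was at 0 in every library of WT PBS and of the Dectin-1 knockout. The 18 B cell markers gave no called gene in either comparison. Against WT 15 of the 18 were higher, with a median difference of 0.33. An unadjusted p under 0.05 by edgeR was found for 3 of the 18, against 12.3% of all genes. Against the Dectin-1 knockout 10 were higher, with a median of 0.07, and 0 had such a p, against 5.52% of all genes. Summed without Cd74, which monocytes also express, the B cell markers were at 73.8 to 130 CPM in WT, 85.0 to 195 CPM in the Dectin-1 knockout and 100 to 146 CPM in the FcgRIIb knockout, and none was at 0 in a whole group. Cd79a, a chain of the B cell receptor complex, differed between FcgRIIb knockout and WT by 1.29 ± 0.45 (adjusted p = 0.399). Jchain was high in the same libraries as Igkc and Igha, and so was Mzb1 apart from the shallow library, where it was at 0. The summed B cell markers overlapped between the genotypes.

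Markers of T cells, NK cells and erythroid cells lay mostly higher in the FcgRIIb knockout than in WT, with none called. Against WT over both treatments 9 of 10 T cell markers were higher, with a median of 0.92 on the log2 scale. An unadjusted p under 0.05 by edgeR was found for 7 of them, against 12.3% of all genes. For NK cells 5 of 6 were higher and 4 had such a p (median 1.67), and for erythroid cells 5 of 5 tested and 4 (median 1.3). Within IVIg the counts were 10 of 10 and 8 for T cells (median 1.53), 6 of 6 and 4 for NK cells (median 1.9), 5 of 5 and 4 for erythroid cells (median 1.53) and 8 of 8 and 2 for neutrophils (median 1.99). Of all genes 5.44% had such a p within IVIg. Against the Dectin-1 knockout over both treatments 10 of 10 T cell markers were higher (median 1.37), while 0 of 8 neutrophil markers were higher. Such a p was found for 6 of the T cell markers, against 5.52% of all genes. The summed T cell markers were at 15.6 to 52.8 CPM in WT, 10.2 to 29.7 CPM in the Dectin-1 knockout and 26.4 to 67.1 CPM in the FcgRIIb knockout. The summed NK markers were at 3.51 to 4.58, 1.53 to 8.39 and 0 to 20.2 CPM in the same order, and the summed erythroid markers at 4.52 to 18.6, 13.1 to 24.8 and 11.6 to 47.8 CPM. No T cell or NK marker was at 0 in a whole group. The summed neutrophil markers were at 3.47 to 45.7 CPM in WT, 12.9 to 1258 CPM in the Dectin-1 knockout and 17.2 to 124 CPM in the FcgRIIb knockout. These levels overlapped between genotypes over both treatments. Within IVIg the summed NK markers did not overlap, at 3.51 to 4.19 CPM in WT and 7.16 to 20.2 CPM in the FcgRIIb knockout. Of all genes taken singly, 5.76% did not overlap there with the FcgRIIb knockout higher. The part of any of these cell types, B cells and plasma cells included, in the immunoglobulin results was not tested.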

How the data were processed

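Libraries were made from 100 ng of total RNA with the TruSeq stranded kit for messenger RNA named in the labels' protocols. The submitters' processing notes name STAR and the build GRCm39. The deposited values are raw counts per gene, made per the file headers with featureCounts 2.0.2 on Ensembl release 104. The command in the header lets a read count for several overlapping genes and gives no strand setting. A further 18 deposited columns could not be matched to a sample and stayed out.

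Genes passing filterByExpr (17040 of 55416) were fitted together for all 18 libraries in edgeR 4.0.16 under R 4.3.3, with TMM scaling, a quasi-likelihood F-test and 12 degrees of freedom for the spread. The p-values were adjusted by Benjamini-Hochberg over all genes tested within a comparison. There were 9 planned comparisons, and 3 that pool both treatments were added after seeing the data. A gene was called at an adjusted p under 0.05. Members passing the filter numbered 95. The other 9 were Ighv1-76, Ighv3-4, Ighv5-12, Ighv5-4, Ighv6-6, Igkv1-88, Igkv13-84, Igkv4-70 and Igkv7-33, each with over 50% of its counts in 1 library. Sums, shares, effective numbers (inverse unbiased Simpson index) and overlaps are descriptions with no test. Genes named are mostly the constant, joining and leading segments, the called members and members from the 3 of lowest p in each comparison. Not all of those 3 are given in every comparison. Members and lists were chosen with earlier results of these data known. DESeq2 1.42.0, other scalings and filters, and each library left out in turn were alternatives. Code was tested on simulated data, and figures were drawn in Python 3.11.15.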

Additional observations from a re-analysis of the deposited data

How the results depend on the processing

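The count of called immunoglobulin genes depended on the setting where the FcgRIIb knockout was compared with WT. With PBS, where edgeR called 0, DESeq2 called 11, no low-count filter 5, a fit on the compared groups alone 6, and leaving out 2 libraries together, FcgRIIb knockout PBS replicate 2 and WT IVIg replicate 3 (a setting added after seeing the data) 4, and leaving out 1 library gave 0 to 6. With IVIg, where 2 were called, DESeq2, RLE size factors, the legacy quasi-likelihood fit and the compared groups alone each called 1, leaving out both libraries gave 5 and leaving out 1 gave 1 to 5. Over both treatments, where 11 were called, the legacy fit called 2, the compared groups alone 1, and leaving out 1 library gave 3 to 17. DESeq2 called 1 in the Dectin-1 knockout for IVIg against PBS, 2 for the Dectin-1 knockout against WT with IVIg and 4 over both treatments. Leaving out 1 library gave 0 to 1 for IVIg in the FcgRIIb knockout and 0 to 1 for the Dectin-1 knockout against WT with IVIg. The cause of these changes was not tested, beyond the fewer samples of the smaller fits.

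Igkv1-110 reversed without WT IVIg replicate 3, to -0.83 for IVIg in WT and to 0.42 for the difference of the IVIg effect in the FcgRIIb knockout, and to -0.85 and 1.01 with both libraries left out. The other fits that left out 1 library reached 5.61 and -6.01. Over both treatments, leaving out 1 library moved Ighd from -0.96 to 0.46 against the Dectin-1 knockout and from -0.22 to 0.65 against WT, Iglj3 from -0.0029 to 1.28 against WT and Ighg1 from -0.065 to 3.35 against WT, so these 3 genes have no settled direction. Of the other values of single genes 2354 kept their direction and side of the threshold, 60 newly passed it and 113 no longer did. Without Ighm the mean summed level was 94.4 CPM in WT PBS (307 with it), 70.9 CPM and 90.6 CPM in the Dectin-1 knockout with PBS and IVIg (378 and 396), and 1742 CPM and 2208 CPM in the FcgRIIb knockout (2081 and 2551), so Ighm made up most of the level in the former groups and not in the FcgRIIb knockout. The variable share with only members of at least 1000 counts was 2.41% in WT PBS, 1.1% and 1.2% in the Dectin-1 knockout with PBS and IVIg, and 17.3% in the FcgRIIb knockout with IVIg. Per kilobase it was 8.83%, 10.1% and 16.8% in the last 3 of these groups, and with members of at least 10 counts 8.18% in the Dectin-1 knockout with IVIg. With at least 1000 counts the effective number was 1 for the heavy chain in every group, since 1 segment remained, and for the kappa chain 1.83 in WT PBS, 1.44 in WT IVIg, and 1.17 and 1.51 in the Dectin-1 knockout. With at least 10 counts it was 13.2 in WT PBS and 10.3 in the Dectin-1 knockout with PBS for the heavy chain, and 11.7 in the latter for the kappa chain. Segments expected in 200 reads, a measure not available below that depth, were 16.9 to 22.3 for the heavy chain in WT libraries, 6.27 in WT IVIg replicate 3, and 9.26 to 25.1 in the FcgRIIb knockout, so this measure overlapped between genotypes. No paired analysis was possible because the replicate numbers follow accession order and pair no samples. In the shallow library and for segments of few counts, a value of 0 is not absence.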
